A study of Mus musculus with 51 samples.

Results

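The arrays carrying the largest spike of the series, 2 pmol per gene, were compared with the unspiked arrays at 0 pmol. The comparison used 9 of the 51 arrays, chosen by their titles: 3 replicates at 2 pmol and 6 replicates at 0 pmol. All arrays were spotted mouse arrays with 2 channels, and both channels held total RNA of CRL1606. CRL1606 is a hybridoma obtained from ATCC, made by fusing spleen cells of immunised BALB/c mice with the BALB/c myeloma P3-X63-Ag8. It secretes a monoclonal antibody that binds human fibronectin and was grown in suspension without serum. At 2 pmol, RNA of 100 genes had been added to channel 1 and RNA of another 100 genes to channel 2, each gene at the same amount. At 0 pmol no amount was added. The model is 1 cell line against itself, the same RNA in both channels, so a ratio carries no information on how strongly the line expresses a gene and the labelled cell type could not be checked by marker levels. The labels do not say if the replicates are separate cultures, and p-values therefore reflect only how far arrays of a group differed, which may be technical. For the limma p-values of features, this spread within an amount was pooled over all 51 arrays of the series. It is thus not the spread of the 9 arrays alone.

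A spike-in is RNA of known identity and amount that is added to a sample before labelling. In a self-hybridisation every gene should give the same signal in both channels apart from noise and dye effects, and a spike added to a single channel moves the ratio of its own probe away from that common level. Such arrays serve as a known truth against which methods for finding changed genes are scored. The sources used here do not name the spiked genes or the channel that forms the numerator of the deposited ratio. A log2 ratio is therefore called positive or negative, without saying which channel was brighter, and a large ratio does not by itself name a spiked gene.

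Values below are log2 ratios centred on the median of each array. A probe was printed as a pair of spots, whose mean is called a feature. Of 7920 features, 7917 were tested and 7304 were measured on all 9 arrays. The difference between 2 pmol and 0 pmol is the mean log2 ratio of the 3 arrays at 2 pmol minus that of the 6 arrays at 0 pmol. A feature is called where the limma adjusted p of that difference is under 0.05.

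Galnt13, Cald1, Zfp330 and Prkaca, the check genes given to mark this comparison, hold ranks 1 and 2 from each end of its differences. Their separation follows from those ranks and is no test of the groups. Galnt13 encodes an enzyme that starts O-linked glycans. Its ratio was 10.15, 9.97 and 9.16 on the arrays at 2 pmol, against -0.38, -0.11, -1.21, -0.24 and -1.18 on the 5 unspiked arrays that measured it. Cald1 encodes the actin-binding protein caldesmon. Its ratio was 7.38, 7.73 and 6.74 at 2 pmol, against -2.82, -1.17 and -0.13 as the lowest, median and highest of the 6 arrays at 0 pmol. Both were positive on every array at 2 pmol and far from any unspiked array. Zfp330, a zinc finger protein, had the opposite sign, with -6.91, -7.30 and -7.09 at 2 pmol and 0.00, 0.20 and 0.31 as the lowest, median and highest at 0 pmol. Prkaca, the catalytic subunit alpha of protein kinase A, gave -6.83, -6.68 and -6.60, against 0.31, 0.55 and 0.78. No array of either group overlapped the other group for any of these genes. The same held for 29.0% of all tested features.

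The arrays at 2 pmol measured 16683 to 16864 of the 16896 spots and those at 0 pmol 15990 to 16746. The paired spots of a feature correlated more closely at 2 pmol (r = 0.952 ± 0.036, SD, n = 3) than at 0 pmol (0.735 ± 0.071, SD, n = 6; exact two-sided permutation p = 0.0119, adjusted over 8 array measures 0.0476). The former is the smallest p this design allows. The median absolute difference between paired spots did not pass the test, at 0.149 ± 0.045 (SD, n = 3) on the spiked arrays against 0.165 ± 0.021 (SD, n = 6; exact permutation p = 0.500). Features above 2 numbered 241 to 247 on the arrays at 2 pmol and 10 to 30 at 0 pmol. Below -2 there were 141 to 215 and 52 to 184. The correlation includes these features, and their part in it was not tested. The spread of the control spots, as the median absolute distance from their own median, was narrower at 2 pmol. It was 0.468 ± 0.034 (SD, n = 3) against 0.767 ± 0.038 (SD, n = 6; exact permutation p = 0.0119, adjusted 0.0476). Over the other spots the spread was 0.336 ± 0.015 (SD, n = 3) against 0.384 ± 0.109 (SD, n = 6; exact permutation p = 0.452). The unspiked arrays formed 2 sets. Replicates 1 to 3 had a mean spread of 0.287 and replicates 4 to 6 one of 0.480, and the number of spots at the upper limit was 2 to 7 in the former and 138 to 151 in the latter. Correlations over features were 0.308 to 0.446 within the former, 0.724 to 0.754 within the latter and 0.186 to 0.314 between them. The part of these array differences in the results was not tested, and counts against each set alone follow.

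At 2 pmol 1239 features were called, which is 15.6% of those tested. Of these, 817 (10.3%) were positive and 422 (5.33%) negative. The 857 called features with 1 gene symbol, 553 positive and 304 negative, represented 820 genes. Without centring 2863 features were called, 2782 positive and 81 negative, and with centring on the control spots 2519, of which 2385 were positive and 134 negative. Positive features thus made up 65.9% of the calls in the main fit, 97.2% without centring and 94.7% with centring on control spots. The median difference of all features was 0.04, 1.41 and 0.80 in these settings. Against unspiked replicates 1 to 3 alone, 900 features were called, and against replicates 4 to 6 alone, 1525. With 2 pmol replicate 3 left out the count was 763.

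Most calls were small. The median absolute difference was 1.41 among the called features and 0.44 among all tested. At least 2 on the log2 scale, a 4-fold change of the ratio, was reached by 247 positive and 145 negative called features. At least 4 was reached by 94 and 53, and at least 6 by 29 and 16. The plot of difference by rank has no step near rank 100, where a full set of spiked genes in 1 channel would end. The feature ranked 100 from the top had a difference of 3.90, and so had the next one. From the bottom these were -2.63 and -2.60.

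**Figure D1:**
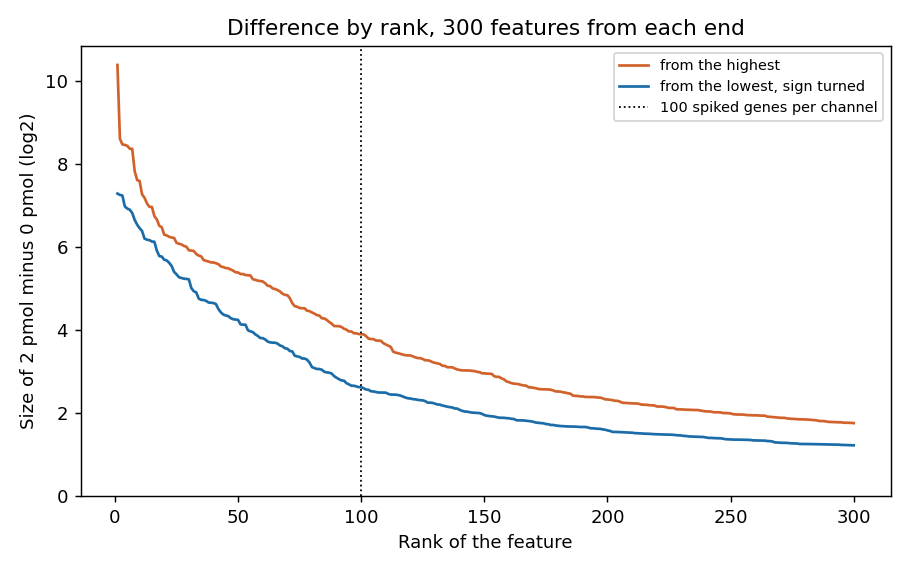
The horizontal axis is the rank of a feature from the highest or from the lowest difference, and the vertical axis the size of the difference between 2 pmol and 0 pmol in log2 units. The curves fall from 10.38 and 7.29 in size at rank 1 to 1.76 and 1.23 at rank 300, with the largest step of the positive curve from rank 1 to rank 2, at 8.61, and the positive curve lies above the negative one throughout; the dotted line marks rank 100.

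The group whose mean lay farther from 0 was mostly 2 pmol for the large features and either group for the small ones. For all 147 called features of at least 4, the mean at 2 pmol lay farther from 0 than the mean at 0 pmol. For those of at least 2 this held for 373 of 392. Among calls of 1 to 2 it held for 345 of 612, and among calls under 1 for 131 of 235. The share over all tested features was 48.4%. For features chosen by size the result follows largely from the choice, since few features lay beyond 2 on the unspiked arrays. The counts also depend on the 0 set by the median centring and were not made under another centring. In the remaining features the unspiked arrays stood farther from 0, as for Kcnb2, a voltage-gated potassium channel, with means of 0.81 at 2 pmol and -1.41 at 0 pmol.

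The spots of a pair were also fitted singly. Features were called from the mean of the same spots, so the counts describe the calls and do not support them. Each spot alone called 818 of the 1239 features, or 66.0%. This was so for 147 of 147 features of at least 4, for 377 of 612 of 1 to 2 and for 56 of 235 under 1. In 1117 of the called features no array at 2 pmol overlapped an array at 0 pmol. Over all tested features the groups did not overlap in 29.0%.

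Beyond the 12 most extreme named genes at each end, the next 15 positive genes had differences from 5.78 to 6.96, with standard errors from 0.52 to 1.00 and limma adjusted p of at most 8.06e-07. They were chosen for the size of this difference, so their p-values describe it and give no further support. The boundary is not a gap: Mreg, just inside the 12, was at 6.97 and Cltb, just outside, at 6.96. In all 15 the arrays of the groups did not overlap, beside 29.0% of all tested features. For genes chosen by size this follows largely from the choice. Over the 15 genes the arrays at 2 pmol lay between 5.15 and 7.49 and the unspiked arrays between -1.47 and 0.95.

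Several of the positive genes act at membranes. Cltb, the light chain B of the clathrin coat, gave 6.95, 7.38 and 6.92 on the arrays at 2 pmol, against -0.45, 0.18 and 0.52 as the lowest, median and highest at 0 pmol. Clcn5, an endosomal exchanger of chloride and protons, gave 5.98, 6.20 and 6.64 against -1.03, -0.09 and 0.42. Atp6ap2, an accessory protein of the vacuolar proton pump, gave 5.87, 5.39 and 6.05 against -0.35, -0.25 and -0.06. For these genes every array at 2 pmol was above 5 and no unspiked array was above 0.52. Nkain2, which interacts with the sodium pump, varied most at 2 pmol, at 5.15, 5.63 and 6.15. Its unspiked arrays ran from -1.25 through a median of -0.29 to 0.25, with replicates 4 to 6 all below replicates 1 to 3.

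Genes of RNA synthesis, processing and translation formed another part of the set. Snd1, an RNA-binding protein with Tudor and nuclease-like domains, gave 7.11, 7.49 and 6.58 at 2 pmol against 0.27, 0.59 and 0.95 at 0 pmol. Eif4a1, the helicase that unwinds the start of mRNAs for translation, gave 6.79, 7.08 and 6.54 against 0.14, 0.53 and 0.91. On both probes replicate 2 was the highest and replicate 3 the lowest of the arrays at 2 pmol, and all unspiked arrays were above 0. Nelfb, a subunit of the complex that pauses RNA polymerase II, gave 6.17, 6.40 and 6.21 against -0.36, 0.19 and 0.51. Cnot10, a subunit of the CCR4-NOT deadenylase, gave 5.51, 5.75 and 5.52 at 2 pmol. Its 5 measured unspiked arrays read -0.44, -0.58, 0.01, 0.14 and -0.02. Elf2, a transcription factor of the ETS family, gave 5.99, 5.94 and 5.68 against -0.76, -0.32 and -0.09, so that all of its unspiked arrays were negative.

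The remaining positive genes have other roles. Ino80, an ATPase that remodels chromatin, gave 6.22, 6.33 and 6.17 at 2 pmol, and its unspiked arrays ran from -0.35 through 0.04 to 0.17. Ppp2r1b, a scaffold subunit of the phosphatase PP2A, gave 6.26, 6.42 and 6.42 against -1.47, -0.25 and 0.39. Cdkn2b, an inhibitor of cyclin-dependent kinases, gave 5.58, 5.61 and 5.75 against -0.44, -0.28 and -0.09. The arrays at 2 pmol lay close together for these genes, while the unspiked arrays of Ppp2r1b were wider apart. Nmral1 gave 6.47, 6.53 and 6.49 against 0.00, 0.69 and 0.81. Siae, which removes acetyl groups from sialic acid, gave 5.46, 5.53 and 5.89 against -0.81, -0.17 and 0.36. Nepro gave 6.01, 6.40 and 6.18 against -0.66, 0.09 and 0.38. Cdc42bpg, a kinase that binds Cdc42, and Mreg, melanoregulin, stand just inside the boundary and were added after their values were seen. Cdc42bpg gave 7.80, 7.84 and 7.03 at 2 pmol against 0.37, 0.51 and 0.71, and Mreg gave 7.01, 7.25 and 6.85 against -0.18, 0.04 and 0.33.

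The 15 negative genes after the first 12 had differences from -6.17 to -5.01, with standard errors from 0.51 to 0.91 and limma adjusted p of at most 3.16e-06. These genes too were chosen for the size of the difference, so neither their p-values nor a lack of overlap gives further support. In all 15 the groups did not overlap, beside 29.0% of all tested features. Over these genes the arrays at 2 pmol lay between -7.59 and -4.39 and the unspiked arrays between -2.34 and 1.52. Chkb, a choline kinase just inside the boundary and added after its values were seen, was at -6.18 and Cbx8, just outside, at -6.17.

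Genes known from lymphocytes were among the negative ones, but genes of immune signalling were called in both directions. In that list, 9 of 83 features were positive and 10 negative, beside 10.3% and 5.33% of all features. Cd22, an inhibitory co-receptor of B cells, gave -6.02, -5.86 and -5.92 at 2 pmol against -0.22, 0.23 and 0.54 at 0 pmol. Tec, a tyrosine kinase of blood cells, gave -7.37, -7.59 and -6.38 against -2.34, -0.68 and -0.25. Cd22 was nearly the same on the 3 arrays at 2 pmol, whereas Tec was the most variable of the 15 on both sides and was below 0 on every unspiked array. Ctse, the aspartic protease cathepsin E, gave -5.73, -5.33 and -4.72 against 0.45, 0.69 and 0.83.

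Genes of the nucleus and the cell cycle made up a second group. Cell cycle genes were also called in both directions. In their list, 7 of 44 features were positive and 4 negative, beside 10.3% and 5.33% of all features. Cbx8, a chromobox protein of Polycomb complexes, gave -6.03, -5.77 and -6.20 at 2 pmol against -0.04, 0.10 and 0.38 at 0 pmol. Rrn3, an initiation factor of RNA polymerase I, gave -5.69, -5.26 and -5.75 against -0.14, 0.17 and 0.27. Uvssa, which acts in transcription-coupled DNA repair, gave -5.28, -5.18 and -5.00 against -0.20, 0.18 and 0.24. For these genes no unspiked array lay above 0.38 or below -0.20. Spag5, a protein of the mitotic spindle, gave -6.17, -6.20 and -5.78 against -0.74, -0.37 and 0.26. Ssbp2, which binds single-stranded DNA, gave -5.69, -4.79 and -5.68. Its unspiked arrays had the largest SD after those of Tec and ran from -0.83 through 0.13 to 1.27.

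The others act in metabolism, transport or outside the cell. Slc7a1, a transporter of cationic amino acids, gave -4.57, -4.53 and -4.59 at 2 pmol against 0.11, 0.39 and 1.52, with all unspiked arrays above 0. Ccn1, a secreted protein of the extracellular matrix, gave -5.48, -5.40 and -5.32 against -0.41, -0.21 and 0.17. Cmpk1, a kinase of pyrimidine nucleotides, gave -5.24, -5.27 and -5.83 against -0.29, -0.11 and 0.43. The arrays at 2 pmol lay closest together for Slc7a1. Nostrin, which directs the traffic of endothelial nitric oxide synthase, gave -5.70, -5.60 and -5.93 against -0.93, -0.10 and 0.37. Iqgap2, a scaffold that binds actin and calmodulin, gave -4.39, -4.46 and -4.95 against -0.05, 0.56 and 0.77. Tmem164 gave -5.43, -4.89 and -5.13 against -0.29, 0.09 and 0.40, and the gene model 0610010F05Rik gave -6.39, -6.66 and -6.91 against -2.03, -0.85 and -0.22. Of the 15 negative genes, only 0610010F05Rik and Tec had every unspiked array below 0.

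**Figure D2:**
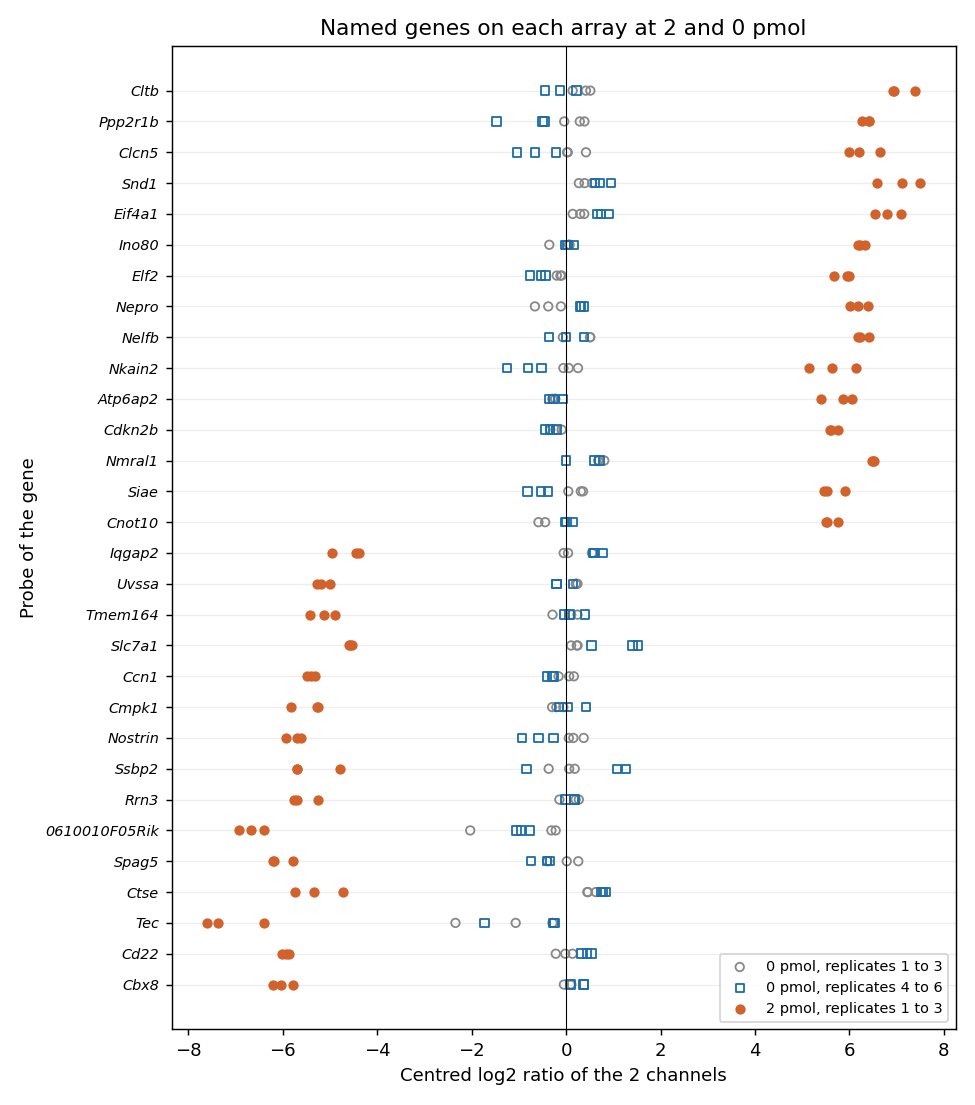
Each line is the probe of 1 gene and the horizontal axis is its centred log2 ratio; filled points are the 3 arrays at 2 pmol, open circles unspiked replicates 1 to 3 and open squares unspiked replicates 4 to 6. Every filled point lies beyond 4 from 0, and the open symbols lie between -2.34 and 1.52.

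Gene families are described by counts beside the background of 10.3% positive and 5.33% negative calls over all features, where the median difference was 0.04. Families were found by symbol patterns and are not complete. Cltb, Nostrin and Cdc42bpg, for example, are in none of the lists, and the members named for a list are the largest within that list alone. Features that a pattern caught in error were removed after values had been seen. The direction of small members depends on the centring, as the counts without centring above show. With both channels holding the same RNA, a called family member is a probe whose ratio moved, not a gene whose expression changed.

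Among regulators of transcription, 8 of 102 transcription factor features were positive and 8 negative, with a median difference of -0.02. E2f4, which acts in cell cycle exit, was at 7.27, Nr3c1, the glucocorticoid receptor, at -6.93, Sox11 at -6.45 and Nfe2l1, a regulator of proteasome genes, at -6.39. Of 138 zinc finger features 11 were positive and 7 negative, with a median of 0.05; beside the check gene they included Zfp292 at 8.47, Zfp248 at 4.88 and Zfp644 at 4.28. Of 127 chromatin features 5 were positive and 13 negative, with a median of 0.05. Beside Ino80 and Cbx8 the list held Nap1l4, a histone chaperone, at -4.35 and Kat6b, a histone acetyltransferase, at -1.88. The call of Kat6b was lost without centring and with centring on control spots.

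In RNA processing 12 of 100 features were positive and 6 negative, with a median of -0.16. Cpsf6, a subunit of the cleavage factor for mRNA 3′ ends, was at 7.61 and Papola, the poly(A) polymerase, at -6.98, so that members of the same step lay on opposite sides. Snrpa, a protein of the U1 particle, was at 4.58. In translation 3 of 37 were positive and 3 negative, with a median of -0.06. Eif4a1 was at 6.28 and its paralog Eif4a2 at -4.76. Eif2ak2, the kinase PKR, was at 2.39. Eif4g2 was at -1.51, and its call was lost in 15 of 22 other settings, among them leaving out any of the arrays at 2 pmol or unspiked replicates 1, 4 or 5.

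In DNA repair and replication 5 of 75 features were positive and 5 negative, with a median of -0.12. Topbp1, which activates the checkpoint kinase ATR, was at -6.82, Polh, a translesion polymerase, at 5.67, Trp53bp1 at -3.38 and the exonuclease Exo1 at 3.04. Among cell cycle genes 7 of 44 were positive and 4 negative, with a median of 0.09. Beside E2f4 and Cdkn2b these included Kif20b, a mitotic kinesin, at -2.49 and Cenpx, a centromere protein, at 2.05. The call of Kif20b was lost without centring.

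Of 118 protein kinase features 16 were positive and 10 negative, with a median of -0.02. Beside Prkaca and Tec the list held Mapk12 at -4.66 and Csnk2a1, a catalytic subunit of casein kinase, at -3.70. The kinase Cdc42bpg, at 7.05, is outside it. Of 90 phosphatase features 7 were positive and 6 negative, with a median of -0.02. Acp2, a lysosomal acid phosphatase, was at 4.93, and 2 features of Ppp1r10 were at -3.32 and -1.79, the latter lost without 2 pmol replicate 1 or 3. In ubiquitin and proteasome genes 20 of 172 were positive and 4 negative, with a median of 0.10. Fem1c, which recruits substrates to a ubiquitin ligase, had 2 negative probes, at -7.24 and -6.90. Ube2j1, a conjugating enzyme of the endoplasmic reticulum, was at 5.53 and Usp25, a deubiquitinase, at 5.22.

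Of 111 solute carrier features 11 were positive and 7 negative, with a median of 0.02. Slc2a5, the fructose transporter, was at 7.83 and Slc28a3, a nucleoside transporter, at 4.99. Slc25a44 gave -6.59, 0.08 and -7.04 at 2 pmol against -0.25, -0.03 and 0.27 at 0 pmol, so that replicate 2 lay within the unspiked arrays. Its difference was -4.51, and -6.81 without that array. Of 94 channel and receptor features 15 were positive and 3 negative, with a median of 0.07. Atp2b2, a calcium pump of the plasma membrane, was at 7.59 and Clcn5 at 6.51. They were followed by Kcnb2 at 2.22 and Kcnh1 at -2.17, and the call of Kcnh1 was lost without centring and without 2 pmol replicate 3. Of 80 features for glycan synthesis 6 were positive and 5 negative, with a median of -0.03. Next to Galnt13 these were led by Nagk, a kinase of N-acetylglucosamine, at -4.91, B3galt2 at 2.75 and Chst11, a sulfotransferase, at -2.53. The call of Chst11 was lost without centring.

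In vesicle transport 12 of 145 features were positive and 6 negative, with a median of 0.10. They included Sft2d1 at -4.63, Arfgap1 at -3.73, Snx2 at 3.30 and Vps4b, an ATPase of endosomal sorting, at 3.03. Among cytoskeletal genes 21 of 151 were positive and 14 negative, with a median of 0.19. Sspn, a member of the dystrophin complex, was at 8.36 and Krt18, a keratin, at 4.25. In the protease list 5 of 43 were positive and 2 negative, with a median of 0.12. Apart from Ctse its calls were small: Cpa3, a mast cell carboxypeptidase, was at 1.48, Adamts18 at 1.40 and Cst3, the inhibitor cystatin C, at -1.24. For Adamts18 the unspiked arrays stood farther from 0, with means of 0.02 at 2 pmol and -1.38 at 0 pmol. The sign of Cst3 turned without centring, to 0.13, and the call of Adamts18 was lost without 2 pmol replicate 3.

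In energy metabolism, 3 of 44 mitochondrial features were positive and 5 negative, with a median of -0.16. The ribosomal proteins Mrps14 and Mrps31 were at 5.35 and 3.27, and Ndufa2, of respiratory complex I, and Mdh2, of the citrate cycle, were at -4.70 and -4.26. Of 13 glycolysis features 1 was positive and 2 negative, with a median of -0.44. The first enzyme of the pathway, Hk2, had a feature at 3.79 and another at -3.11. Pfkm was at -1.30, which turned to 0.07 without centring and lost its call without 2 pmol replicate 1 or 3.

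Immune signalling genes included 9 positive and 10 negative features of 83, with a median of 0.25. Tlr1, a receptor for bacterial lipoproteins, was at 8.46, and Tcra, the T cell receptor alpha chain, and Ms4a4b were at -6.54 and -6.20. Of 8 features for B-lineage genes 1 was positive and 2 negative, with a median of 0.21. Beside Cd22 these were Pou2af1, a B cell coactivator, at -1.68 and Btk, a kinase of B cell receptor signalling, at 1.24, or 0.77 without unspiked replicate 1. Of 20 features for markers of other cell types 5 were positive and 3 negative, with a median of 0.03. They included Tcra, Krt18, the T cell receptor subunit Cd3e at 2.02 and the endothelial cadherin Cdh5 at -1.34. For Cd3e the unspiked arrays stood farther from 0, with means of 0.39 at 2 pmol and -1.63 at 0 pmol. Btk lost its call in 13 of 23 other settings and Cdh5 in 11, both of them without any 1 of the arrays at 2 pmol. Btk also lost it without unspiked replicate 1, 2 or 3 and Cdh5 without unspiked replicate 4, 5 or 6. Pou2af1 lost its call in 6, among them without 2 pmol replicate 1 or 3, and Cd3e in 2 of 22. Cdh5 turned to 0.026 without centring.

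**Figure D3:**
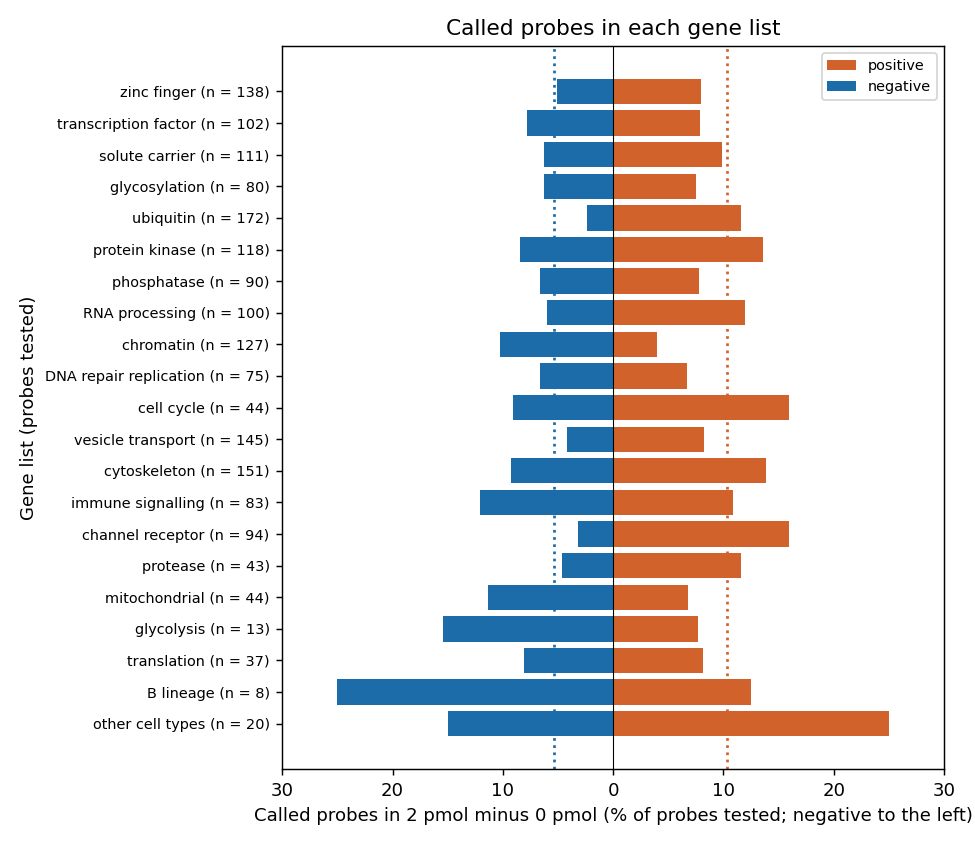
Bars give the percent of tested features in each gene list that were called, positive to the right and negative to the left, and the dotted lines mark the shares over all features, 10.3% and 5.33%. The ubiquitin list has 20 positive and 4 negative calls of 172 features and the chromatin list 5 and 13 of 127; the B lineage and glycolysis lists rest on 8 and 13 features.

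A large difference at a probe was seldom shared by other probes of the same gene. Of the 147 features of at least 4, 115 had a symbol, and 31 of these, from 30 genes, had another tested probe for the same gene. Of the 43 other probes, 39 carried the same sequence accession as the large one. Of the 43, 5 were called with the same sign, 3 with the opposite sign and 35 were not called, so that 18.6% were called beside 15.6% of all features. Their median absolute difference was 0.50 beside 0.44 for all features. The Fem1c probes were the only 2 that lay beyond 4, each being the other probe of its partner.

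Galnt13 had the largest difference, 10.38, and its other probe of the same accession was at -0.18. The other probe of Sox11 was at 0.00, that of Papola at -0.32, that of Nr3c1 at -0.56 and that of Sspn at 0.87. Pum2, an RNA-binding repressor of translation, had a probe at 5.35 and others at -0.16 and -0.08. Tenm4 had a probe at -4.25 and 4 others between -0.57 and 1.02. Smpd4, a sphingomyelinase, was different, with a probe at -4.94 and another of the same sign that was also called. Opposite signs were seen for Ssbp2, at -5.62 with others at 2.08 and 0.02, for Syncrip, an RNA-binding protein, at -4.13 and 1.89, and for Cald1. Cald1 was at 8.61, with 0.43, 1.09 and 1.63 for probes of the same accession, none of them called, and -3.35 for a probe of another accession. The files hold no probe sequences, so which stretch of a transcript each probe covers is not given here.

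**Figure D4:**
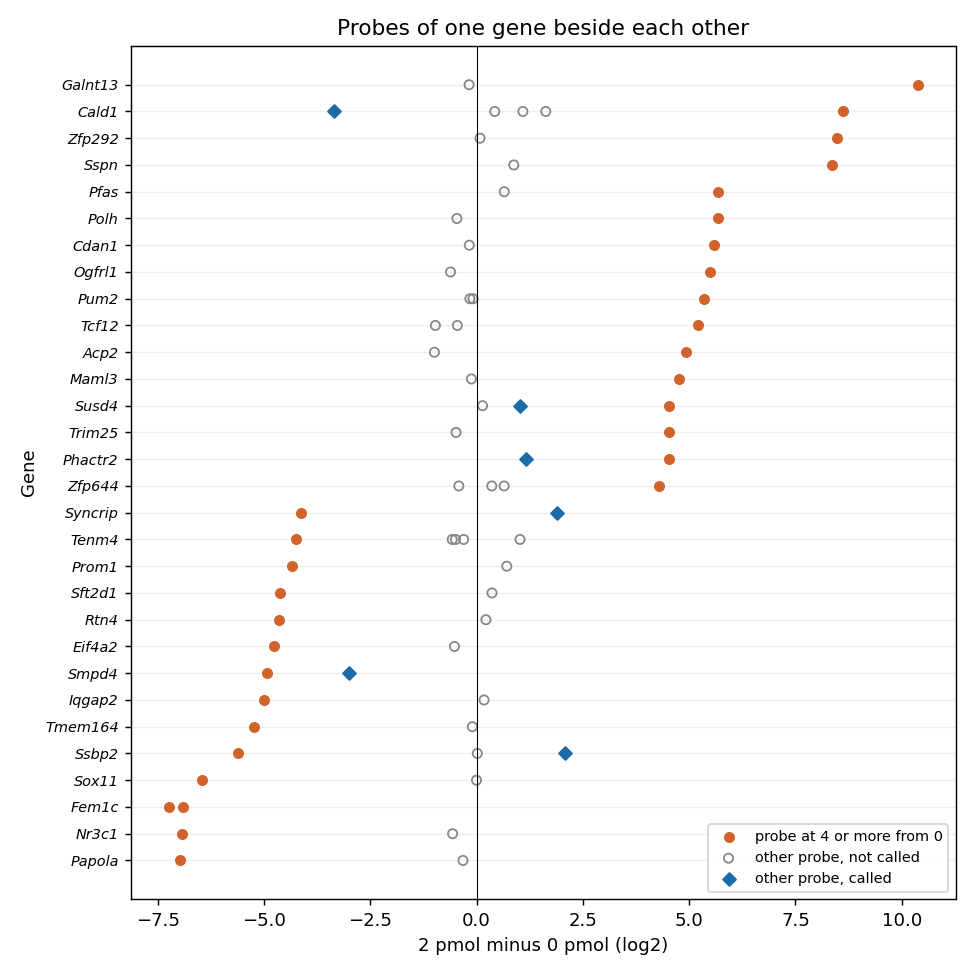
Each line is a gene with a called feature of at least 4 in size and another probe; the horizontal axis is the difference between 2 pmol and 0 pmol in log2 units. Filled circles are the large probes, open circles other probes that were not called and diamonds other probes that were called; nearly all open circles lie within 1 of 0, and the 2 Fem1c probes are the only pair with both members beyond 4.

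Called features were printed near each other more often than features at large. A feature had up to 4 neighbours that share an edge in its print block. A positive called neighbour was found for 55.2% of the positive called features, beside 31.5% of all features tested. For positive calls of at least 2 the share was 71.3%, and for those of at least 4 it was 70.2%. A negative called neighbour was found for 39.3% of negative calls, beside 17.4% of all features. The excess ran along the columns of a block more than along its rows: 41.6% of positive calls had a positive called neighbour in the column, beside 16.1% of all features, and 24.1% had 1 in the row, beside 18.9%. For negative calls these shares were 28.2% beside 8.49% and 15.9% beside 9.79%.

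Calls were present throughout the array, with 11 to 45 in each of the 48 print blocks, and 40 blocks held a feature of at least 4. The features of at least 4 were not spread evenly over the blocks. Block 27 held 16 of them among 165 tested features, block 32 held 9, and blocks 28 and 36 held 8 each. Columns 20 and 21 of the blocks held 45 of the 147 features of at least 4, or 30.6%, beside 9.70% of the features tested. Some of the named genes were neighbours. Ino80, at 6.25, was printed beside Cpsf6, at 7.61. Cnot10, at 5.78, was printed next to Polh, at 5.67, and Atp6ap2, at 6.01, next to Vps4b, at 3.03. Ctse, at -5.91, stood between Ms4a4b, at -6.20, and Nr3c1, at -6.93. Neighbours of opposite sign were Mreg, at 6.97, with Eif4a2, at -4.76, and Ube2j1, at 5.53, with Cdh5, at -1.34. The part of print position in the calls was not tested.

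The same features were followed over the smaller amounts, where the spike also held 100 genes per channel. The median of the means of the 15 positive named genes was -0.17 at 0 pmol and 3.19 at 0.025 pmol, the smallest amount. From 0.05 to 0.5 pmol it ran between 3.09 and 4.41, ending on 4.29, and 0.75 pmol gave 3.21. It reached 5.99 at 1 pmol and 6.24 at 2 pmol. For the 15 negative genes the median was 0.08 without spike and -3.21 with 0.025 pmol. It was -4.36 at 0.5 pmol, -3.55 at 0.75 pmol, -5.71 at 1 pmol and -5.45 with the largest spike. At 1 pmol the arrays missed 13.5% to 50.4% of their spots: Nostrin was not measured there, so the median is over 14 genes, and Slc7a1, Spag5 and Tec rest on 1 array each. The medians thus left the unspiked level at the smallest amount and did not follow the amount in order. The level at 0.75 pmol lay nearer to 0 than that at 0.5 pmol on both sides. It includes replicate 4, whose paired spots correlated at only 0.198 and which lay nearest to 0 of its group for each of these genes. Cltb, for example, was at 2.36 there and at 5.25 to 5.89 on the other arrays at 0.75 pmol. Replicates 4 to 6 at 0.05 and 0.1 pmol also had low paired correlations, from 0.402 to 0.691. The part of these arrays in the medians was not tested.

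Of the 15 positive genes, 12 had the positive sign on every spiked array that measured them, and 11 of the 15 negative genes the negative sign. The counts of spiked arrays include those at 2 pmol, where 1 sign was required for a gene to be named. They are thus partly fixed by the choice of genes. Ino80 was positive on 34 of 45 spiked arrays and had a mean of 0.32 at 0.025 pmol, and Cnot10 was positive on 41 of 45, with 0.37. Cdkn2b was at 4.76 at 0.025 pmol, 2.47 at 0.75 pmol and 5.65 at 2 pmol. Tec was at -6.18 at 0.025 pmol, -5.97 at 0.75 pmol and -7.12 at 2 pmol. The genes therefore differed in how much of their ratio was present at the smallest amount.

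**Figure D5:**
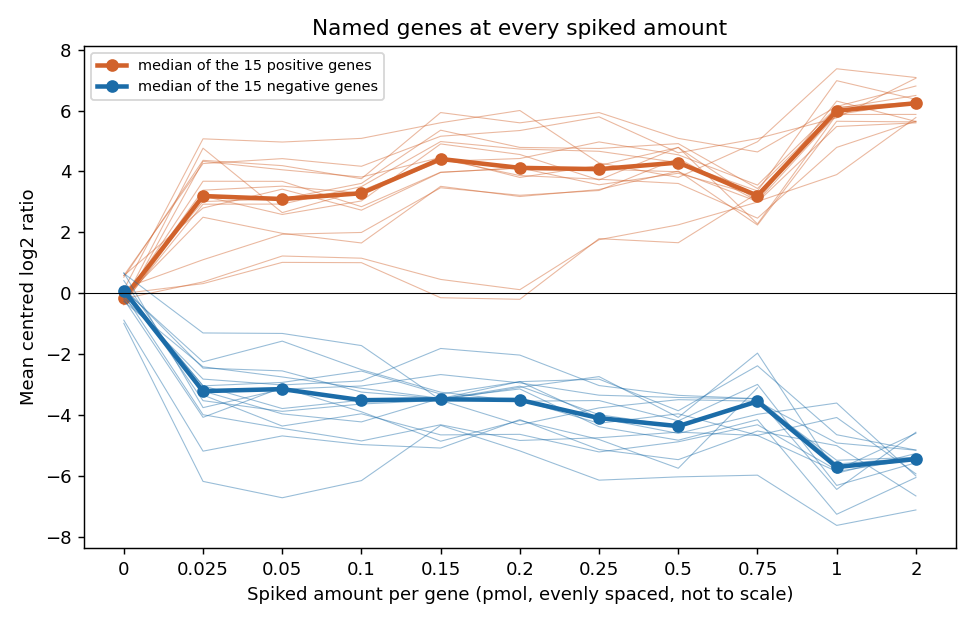
The horizontal axis lists the spiked amounts per gene in pmol, evenly spaced and not to scale, and the vertical axis is the mean centred log2 ratio of the arrays at that amount; thin lines are single genes and thick lines the medians of the 15 positive and the 15 negative named genes (14 at 1 pmol, without Nostrin). The medians are -0.17 and 0.08 at 0 pmol, 3.21 and -3.55 at 0.75 pmol and 6.24 and -5.45 at 2 pmol.

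Between 2 pmol and 0.75 pmol, an amount with 6 arrays, 309 features were called, or 3.90%, of which 225 (2.84%) were positive and 84 (1.06%) negative. At least 2 was reached by 91 positive and 19 negative ones. The count was 207 without 0.75 pmol replicate 4, whose paired spots correlated least of these arrays, and 177, 183 and 164 without each of the arrays at 2 pmol. This comparison shares the arrays at 2 pmol with the one against 0 pmol, so its values are given beside that one and do not support it. Without centring 522 features were called, of which 521 were positive.

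The most positive named features against 0.75 pmol were Elf2, Siae, Cdan1 and Cpsf6. The mean ratio of Elf2 was 2.28 ± 0.89 (SD, n = 6) with 0.75 pmol and 5.87 ± 0.17 (SD, n = 3) with 2 pmol. Its difference was 3.59 beside 6.23 against 0 pmol. Siae differed by 3.39 beside 5.80, Cdan1, a protein of erythroid maturation, by 3.35 beside 5.59, and Cpsf6 by 3.34 beside 7.61. The most negative were Nfe2l1, Ctse, Rell1 and Zfp688. The mean ratio of Nfe2l1 was -2.16 ± 0.78 (SD, n = 6) with 0.75 pmol and -5.77 ± 0.31 (SD, n = 3) with 2 pmol. Its difference was -3.61 beside -6.39 against 0 pmol. Ctse differed by -3.30 beside -5.91 and Rell1 by -2.82 beside -4.38, and Zfp688 differed by -2.81. For Elf2, Siae, Cpsf6, Nfe2l1 and Ctse, replicate 4 at 0.75 pmol was the array nearest to 0. For Cdan1, Rell1 and Zfp688 it lay on the other side of 0 from the remaining arrays, at -2.67 for Cdan1.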

How the data were processed

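The values the authors deposited are log2 ratios, 1 for each spot of an array; the base was read from the values, and background correction and normalisation are not given in the sources used here. Values of 16.61, log2 of a ratio of 100000, occurred 1074 times and were set to missing. Each of 16896 spots belongs to 1 of 48 print blocks of 352; paired spots, 22 apart, were averaged to 8448 probes. The 528 probes at 11 control positions were left out. Symbols came from the platform annotation, updated by Entrez identifier with RefSeq genes of GRCm38.p6 (10766 spots matched): 5347 features had 1 symbol and 2573 had not. Arrays were centred on the median of their other spots.

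limma 3.58.1 (R 4.3.3) was fitted to all 51 arrays with 1 mean per amount and empirical Bayes moderation, needing 2 measured arrays per group. Tests were two-sided, with Benjamini-Hochberg adjustment over all tested features. Array measures used exact permutation tests. The fit was also run on simulated data with known changes and independent noise for each feature and array. It called 28.8% of changes of 1, 88.8% of changes of 2 and 100% of changes of 4, and 4.29% of its calls were false. The simulation held no sets of similar arrays and no likeness of print neighbours, so it cannot show how these affect the calls. Figures used matplotlib 3.10.9 in Python 3.11.15.

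The genes named are those with 1 symbol, called and of 1 sign on all arrays at 2 pmol, at ranks 13 to 27 from each end; the 4 check genes; up to 4 called members of each list with the largest differences; and, against 0.75 pmol, the 4 most positive and 4 most negative. Others were chosen after their values were seen. Members and lists were chosen with earlier results of these data known.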

Additional observations from a re-analysis of the deposited data

Results flagged for a closer look

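Of 114 sets of at most 6 values at 0 or 0.75 pmol that belong to named features, 10 held an array far from the others by Dixon's 95% critical value. Not every named feature gave a set at both amounts. Chance gives about 1 in 20 for independent sets, but these sets share arrays and are not independent. Replicate 4 at 0.75 pmol stood apart for Cdan1 (-2.67), Nfe2l1 (-0.61), Elf2 (0.56) and Siae (0.49). Replicate 6 at 0 pmol stood apart for Mrps14 (1.88) and Nmral1 (-0.0035), and replicate 3 for Arfgap1 (-0.18) and Ino80 (-0.35). Replicate 5 at 0 pmol stood apart for Cenpx (0.92) and replicate 1 for Btk (-2.82), where the others lay between -0.52 and 0.40. The arrays at 2 pmol, with 3 in the group, were not tested in this way.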

How the results depend on the processing

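Of 2338 checks of 102 named features under the other settings, 2263 kept the direction and the side of the threshold, 72 lost the call and 3 turned sign, and 86 features kept both throughout. The sign turned without centring for Cst3 (0.13), Pfkm (0.07) and Cdh5 (0.026). None of the ranked, check or added genes changed. Among list members, Mrps14, Kcnb2 and Slc25a44 each lost the call in 1 setting. At 2 against 0 pmol, 1239 features were called; centring on the control spots gave 2519 and no centring 2863. Leaving out single arrays gave 763 to 1295, the lowest without 2 pmol replicate 3. Fitted to the 9 arrays alone, 1741 were called, 56.1% of them positive. Against 0.75 pmol, 309 were called, 522 without centring and 164 to 315 with single arrays left out. The replicate numbers did not pair the arrays (correlations of same-numbered arrays -0.05 to 0.04 with 0 pmol), and with the replicate number as a block the counts were 1031 and 564. The spread at 2 pmol minus that at 0 pmol was -0.05 over all but control spots and -0.30 on the control spots (exact permutation p = 0.0119); leaving out single arrays gave -0.07 to -0.02. The causes were not tested. The number of arrays limits the precision of small differences.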
